A study of Mus musculus with 13 samples.

Results

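The mitochondrial ribosomal proteins were examined in C2C12 myotubes treated with palmitoylethanolamide (PEA), a fatty acid amide made by many tissues, or with its vehicle. Members were the protein-coding genes whose mouse symbol is Mrpl or Mrps followed by a digit and whose mean normalised count was at least 10. By this rule 77 of the 16382 genes in the tables were members, 48 with a large subunit symbol (Mrpl) and 29 with a small subunit symbol (Mrps). The annotation holds 78 such genes, and the remaining one, Mrpl33, was not analysed here. C2C12 is a mouse myoblast line of wild-type genotype whose cells fuse into multinucleated myotubes in low serum. On day 8 of differentiation the cultures received either DMSO alone (CON) or 10 μM PEA in DMSO (PEA), and RNA was taken after 24 h. Each group held 6 libraries, from 2 wells in each of 3 runs of the experiment, and no label ties a library to its run. P-values therefore measure the spread between these libraries, part of which may lie between wells of 1 run.

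Mitochondria carry their own ribosome, which translates the few proteins encoded by mitochondrial DNA, all of them subunits of the respiratory chain and of ATP synthase. Its RNA is transcribed from mitochondrial DNA, while its proteins are encoded in the nucleus, made in the cytosol and imported. The small subunit reads the messenger RNA, and the large subunit joins the amino acids and feeds the growing chain to the inner membrane. Many of its proteins descend from those of bacterial ribosomes and others were added later in evolution. Skeletal muscle is rich in mitochondria, and myoblasts gain mitochondrial mass as they differentiate.

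Libraries held 12354845 to 50397444 estimated counts. Myotube markers were present throughout, with a summed normalised count of 111500 to 165060 in CON and 116961 to 131412 in PEA. All 8 myotube markers had a log2 fold change below 0, 5 of them with an unadjusted p below 0.05. Of these edgeR called Tnnt3 and Myh8 lower in PEA, DESeq2 called Tnnt3 and Acta1, and limma on the deposited normalised counts called Tnnt3 alone. When 1 library was left out, the edgeR call of Myh8 was lost in 8 of 12 fits (all but those without CON replicate 2, 3 or 4 or PEA replicate 3, adjusted p at most 0.108) and that of Tnnt3 without PEA replicate 6 (adjusted p = 0.0514). Of the 6 markers of proliferating myoblasts 4 were called higher by each of these tools, Mki67, Top2a, Cdk1 and Ccnb1, all genes of the cell cycle. The myoblast genes Pax7 (log2 fold change -0.02; edgeR adjusted p = 0.947) and Myf5 (0.09; edgeR adjusted p = 0.58) were not called. The summed level of the proliferation markers was 2481 to 5357 in CON and 5291 to 6229 in PEA. Endothelial, adipocyte and neuronal markers summed to no more than 19.3 normalised counts in any library and epithelial markers to no more than 41.7. Not every marker had values. Only Plin1 stood for 3 adipocyte markers, Syp for 3 neuronal ones, Cdh1 and Krt5 for 3 epithelial ones, and Cd68 and Ptprc for 4 immune ones. The immune sum was 51.1 to 134 in CON and 72.5 to 125 in PEA, nearly all of it Cd68, with Ptprc below 1 on average in each group. The part of these marker shifts in the values below was not tested, and in bulk RNA fewer cells of a type and less RNA per cell cannot be told apart.

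Mitochondrial ribosomal protein genes have many processed pseudogenes, copies of the spliced messenger RNA inserted elsewhere in the genome, and the likeness of the sequences decides how far a read can be assigned to the member. The pair whose direction changed when its counts were summed (Mrpl23) and the pair that holds the member with the largest fall (Mrpl48) are shown here, read from the GRCm39 genome. Mrpl23 lies at chr7:142086423-142094486 on the plus strand and its copy Mrpl23-ps1 at chr2:74421674-74422253. They were identical over 540 aligned bases, 438 of them coding, and the first 120 coding bases, the same in both, are given as an example.
Mrpl23: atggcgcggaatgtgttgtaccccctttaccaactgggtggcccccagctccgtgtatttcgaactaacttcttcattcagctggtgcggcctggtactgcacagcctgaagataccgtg
Mrpl48 lies at chr7:100194939-100257508 on the minus strand and Mrpl48-ps at chr4:88517412-88518047. They were 98.1% identical over 636 aligned bases with 12 mismatches, and the stretch from coding base 330 to 449 is given for both, with the 7 differing bases in capitals.
Mrpl48: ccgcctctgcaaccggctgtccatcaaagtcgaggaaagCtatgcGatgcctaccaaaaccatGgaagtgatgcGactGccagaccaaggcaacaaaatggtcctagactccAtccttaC
Mrpl48-ps: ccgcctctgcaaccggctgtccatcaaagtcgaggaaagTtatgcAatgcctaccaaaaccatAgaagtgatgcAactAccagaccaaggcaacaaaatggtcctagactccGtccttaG
A short read from the first gene cannot be placed by its bases within the shared stretch, whereas a read from the second can be placed where it crosses a difference.

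The first comparison asked whether transcripts of the mitochondrial ribosome differed between PEA and CON. Of the 77 members 7 were lower in PEA and 0 were higher (edgeR quasi-likelihood test, Benjamini-Hochberg adjusted p below 0.05 over 13142 genes). Over all genes tested 4.74% were called lower and 6.31% were called higher, so that 9.09% of members called lower stands beside 4.74%. The members called lower were Mrpl48, Mrpl41, Mrpl12 and Mrpl21 of the large subunit and Mrps21, Mrps24 and Mrps16 of the small subunit. Their log2 fold changes lay between -0.42 and -0.23, a fall of 25.4% for Mrpl48 at one end and of 14.5% for Mrps16 at the other. At an unadjusted p below 0.05, 24 members were lower and 0 were higher, where 13.1% of all genes tested were lower and 14.3% higher. DESeq2 called 8 members lower and 0 higher, the eighth being Mrps7, where it called 7.03% of all genes lower and 7.48% higher.

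Small differences in one direction were spread over most of the members. The log2 fold change was below 0 in 62 of the 77 members (80.5%), against 48.7% of all genes tested. The median log2 fold change was -0.08 over members and 0.01 over all genes tested. The quartiles over members lay at -0.15 and -0.02, and the median standard error was 0.06, so that most single members could not be told from no difference. Among the 70 members not called, the 95% interval excluded a fall of 25% in 68. These counts describe genes measured in the same libraries and are not independent of each other.

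**Figure D1:**
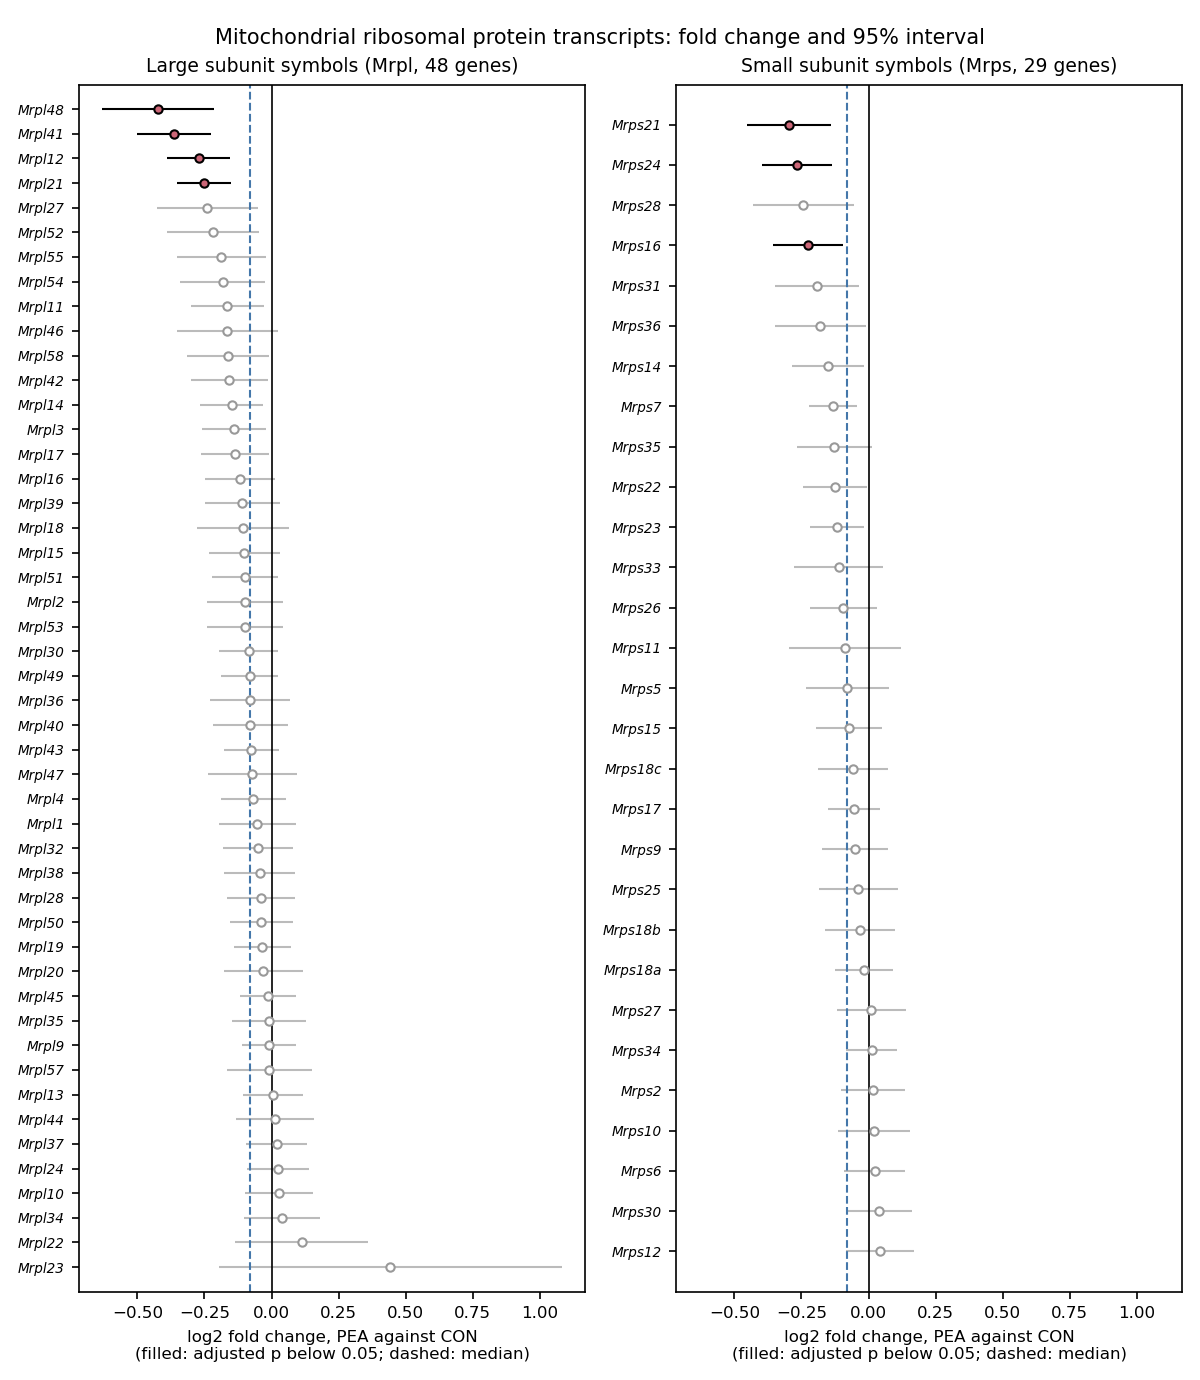
The log2 fold change of each member (horizontal axis, PEA against CON) is plotted with its 95% interval, large subunit symbols on the left and small subunit symbols on the right, with filled points for the 7 members called lower and a dashed line at each subunit's median. Most points lie to the left of 0, the medians are -0.08 in both panels, and Mrpl23, at the foot of the left panel, has the widest interval.

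Among the large subunit members, Mrpl48, a protein of the central protuberance with no bacterial counterpart, had the largest fall. It had 330.3 to 436.5 normalised counts in CON (median 394) and 236 to 354.6 in PEA (median 292). The groups overlapped by 1 PEA library, PEA replicate 1, which lay above the lowest CON library. The log2 fold change was -0.42 ± 0.10 (SE; edgeR adjusted p = 0.0134). The copy Mrpl48-ps held 268 ± 31.0 normalised counts in CON and 243 ± 22.9 in PEA (SD, n = 6), and 57.1% of the counts of the pair were assigned to Mrpl48. The copy's own log2 fold change was -0.14 ± 0.09 (edgeR adjusted p = 0.344). With the counts of the pair summed, the log2 fold change was -0.30 (edgeR adjusted p = 0.0201), so the call held and the size was smaller.

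Mrpl41 is a protein found only in mitochondrial ribosomes that has also been described as a partner of Bcl-2. It had 699.7 to 866 normalised counts in CON (median 723) and 522 to 631 in PEA (median 566). The groups did not overlap. CON replicate 3 stood above the other CON libraries, and the log2 fold change was -0.36 ± 0.07 (SE; edgeR adjusted p = 0.00327). Exons of Dph7, on the opposite strand, overlap 41.9% of the exon bases of Mrpl41. Dph7 had a log2 fold change of -0.01 ± 0.08 (edgeR adjusted p = 0.934), and the strand setting of the counting is not given in the sources used here.

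Mrpl12 is a stalk protein that, bound to Mrpl10, receives the elongation factors. It had 2111 to 2558 normalised counts in CON (median 2216) and 1771 to 2146 in PEA (median 1831). Only PEA replicate 1 reached into the CON range, and the log2 fold change was -0.27 ± 0.06 (SE; edgeR adjusted p = 0.00681). The other stalk members gave different values. Mrpl10, the base of the stalk, had 1678 ± 103 normalised counts in CON and 1707 ± 153 in PEA (SD, n = 6), with a log2 fold change of 0.03 ± 0.06 (edgeR adjusted p = 0.804). Mrpl11, the factor-binding protein beside the stalk, had a log2 fold change of -0.16 ± 0.06 (edgeR adjusted p = 0.106). Differences between these fold changes were not tested.

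Mrpl21, which descends from bacterial L21, had 1111 to 1256 normalised counts in CON (median 1185) and 954 to 1079 in PEA (median 982). The groups did not overlap, and the log2 fold change was -0.25 ± 0.05 (SE; edgeR adjusted p = 0.00456). Mrpl45 and Mrpl24, which lie near the exit of the peptide tunnel, did not pass the test. Mrpl45, which docks the ribosome at the inner membrane, had a log2 fold change of -0.01 with a 95% interval of -0.12 to 0.09, and Mrpl24 of 0.02 with an interval of -0.09 to 0.14. Mrpl58, a peptidyl-tRNA hydrolase that is also a ribosomal subunit, had a log2 fold change of -0.16 ± 0.07 (edgeR adjusted p = 0.157).

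In the small subunit, Mrps21, which descends from bacterial S21, had 1277 to 1598 normalised counts in CON (median 1392) and 962 to 1331 in PEA (median 1140). PEA replicate 1 lay within the CON range and PEA replicate 2 was the lowest library. The log2 fold change was -0.30 ± 0.07 (SE; edgeR adjusted p = 0.0179). Mrps24, the counterpart of bacterial S3 near the entry of the messenger RNA, had 849 to 1103 normalised counts in CON (median 952) and 743 to 841 in PEA (median 781). The groups did not overlap, and the log2 fold change was -0.27 ± 0.06 (SE; edgeR adjusted p = 0.0134). Exons of Urgcp, on the same strand, overlap 10.6% of the exon bases of Mrps24. Urgcp had means of 1187 normalised counts in CON and 1171 in PEA and a log2 fold change of -0.02 ± 0.05 (edgeR adjusted p = 0.853). The part of this overlap in the value of Mrps24 was not tested.

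Mrps16, the counterpart of bacterial S16 and a known gene of inherited mitochondrial disease, had 812 to 985 normalised counts in CON (median 939) and 727 to 869 in PEA (median 760.2). PEA replicate 1 lay inside the CON range. The log2 fold change was -0.23 ± 0.06 (SE; edgeR adjusted p = 0.0278), and the adjusted p rose above 0.05 when CON replicate 3, 4 or 6 or any of PEA replicates 2 to 6 was left out, to 0.0683 at most. Mrps28, the counterpart of bacterial S1, had a log2 fold change of -0.24 ± 0.09 (edgeR adjusted p = 0.0848). Mrps7, a protein of the head of the small subunit, had 1773 ± 86.3 normalised counts in CON and 1616 ± 49.4 in PEA (SD, n = 6; edgeR adjusted p = 0.0565). Mrps12, which takes part in decoding, had a log2 fold change of 0.04 with a 95% interval of -0.08 to 0.17.

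**Figure D2:**
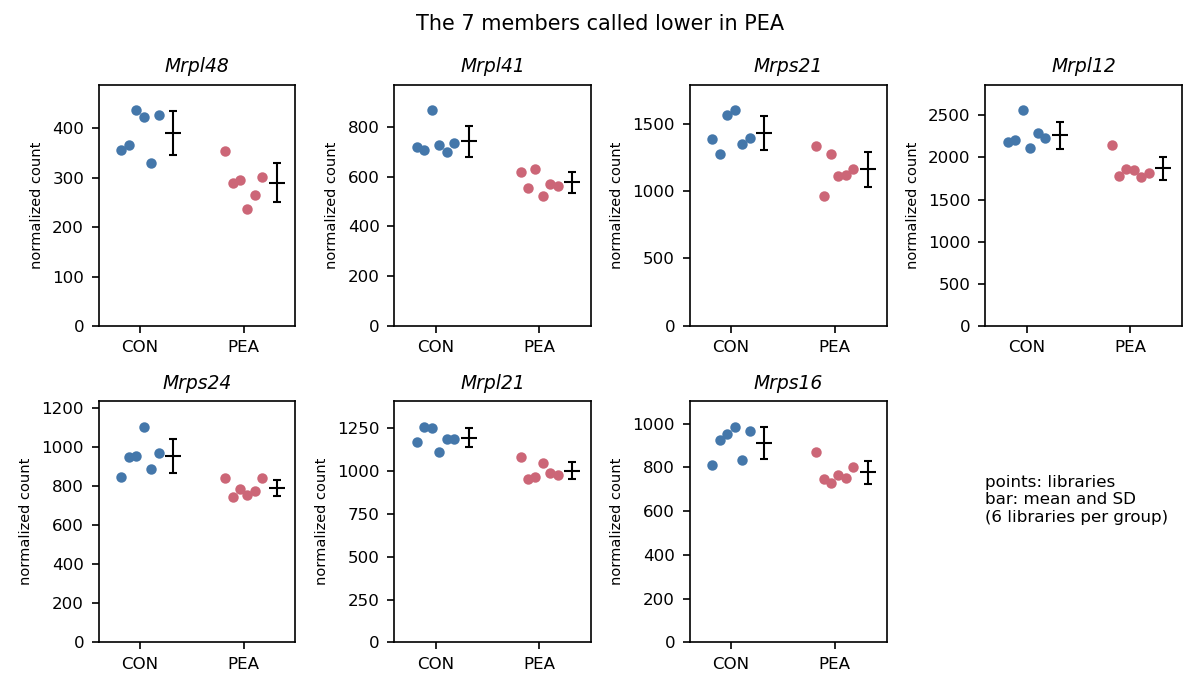
Normalised counts (vertical axis, from 0) of the 7 members called lower are plotted for each CON and PEA library, with the mean and SD of the 6 libraries of each group as a bar. Mrpl41, Mrpl21 and Mrps24 have no overlap between groups, and in the other 4 panels the highest PEA library reaches into the CON range.

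The groups did not overlap, with PEA lower, in 3 of the 77 members, Mrpl41, Mrpl21 and Mrps24, and in 1.81% of all genes tested. No member had all PEA libraries above all CON libraries (2.53% of all genes tested). The spread within a group was small, with a median over members of the SD at 7.64% of the mean in CON and 7.32% in PEA.

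The second comparison set the large subunit beside the small one. Of the large subunit members 4 of 48 (8.33%) were called lower and of the small subunit members 3 of 29 (10.3%), with 0 called higher in either by edgeR and by DESeq2. The median log2 fold change was -0.08 in each, and 40 and 22 members respectively had a value below 0. Large subunit members together took 0.261% ± 0.00944 of the estimated counts in CON and 0.249% ± 0.00805 in PEA (SD, n = 6). The small subunit members took 0.142% ± 0.00415 in CON and 0.137% ± 0.00346 in PEA. The ratio of large to small subunit counts was 1.83 ± 0.0402 in CON (range 1.79 to 1.89) and 1.82 ± 0.0207 in PEA (range 1.79 to 1.85). The groups overlapped in this ratio, and the mean of one lay within the range of the other.

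The members tended to be high or low together in a library. Each member's log2 CPM was centred on its own average, and the median over members was -0.02 to 0.10 in CON and -0.12 to 0.02 in PEA. CON replicates 2 and 3 had the highest values, with 63 of the 77 members above their own mean in each. PEA replicate 2 had the lowest value, with 12 members above their mean, and PEA replicate 5 followed with 14. CON replicates 1 and 4 and PEA replicate 1 were out of order with their groups, at -0.01, -0.02 and 0.02, so that the groups overlapped. The trend of the log2 level with GC content was also furthest from 0 in 2 of these libraries, at 0.09 per 10 percentage points of GC in PEA replicate 2 and -0.07 in CON replicate 3. In CON replicate 2 the GC trend was 0.06, opposite in sign to CON replicate 3. The group means of the GC trend were -0.007 in CON and 0.007 in PEA. The trend with exon length was -0.041 to 0.011 per doubling of length in CON (mean -0.014) and 0.002 to 0.031 in PEA (mean 0.014). With exon length and GC trends removed from every library, 7 members were called lower and the median log2 fold change of the members was -0.08.

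**Figure D3:**
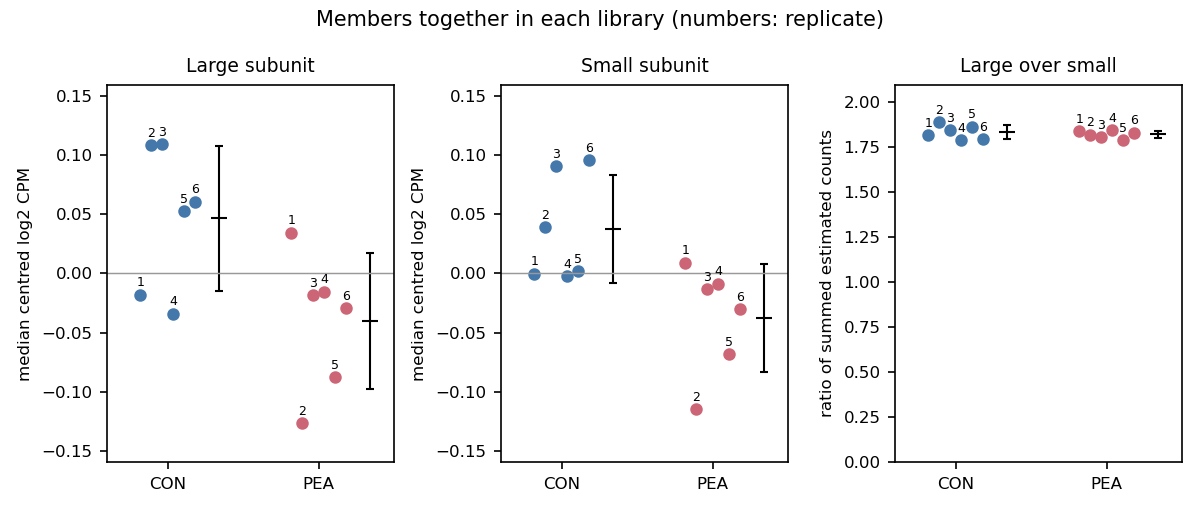
The left and middle panels show the median centred log2 CPM of large and small subunit members in each library, with replicate numbers above the points, and the right panel the ratio of summed large to small subunit counts, each with the mean and SD of 6 libraries as a bar. The 2 subunits place PEA replicate 2 lowest, groups overlap in each panel, and the ratio lies between 1.79 and 1.89 throughout.

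Members that descend from bacterial ribosomes were then set beside those added later, leaving out Mrps18a and Mrps36. Of 45 members with a bacterial counterpart 5 were called lower (11.1%, against 4.74% of all genes tested), Mrpl12, Mrpl21, Mrps16, Mrps21 and Mrps24, with a median log2 fold change of -0.07. Of 30 without one 2 were called lower (6.67%), Mrpl41 and Mrpl48, with a median of -0.10. In both classes 0 were called higher by edgeR and by DESeq2, and at an unadjusted p below 0.05 also 0.

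Symbols of the family do not always give the place in the ribosome. Mrps30 and Mrps18a carry small subunit names but sit in the large subunit of the mammalian ribosome. Mrps30 had a log2 fold change of 0.04 (95% interval -0.08 to 0.16) and Mrps18a of -0.02 (-0.13 to 0.09). The related Mrps18b and Mrps18c, both in the small subunit, had values of -0.03 (-0.16 to 0.10) and -0.06 (-0.19 to 0.07). Mrps36 is a subunit of the 2-oxoglutarate dehydrogenase complex and not of the ribosome, and its log2 fold change was -0.18 (-0.35 to -0.01; edgeR adjusted p = 0.155). Sorted by place, 4 of 50 large subunit members and 3 of 26 small subunit members were called lower, the same genes as by symbol.

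Levels differed widely between members when divided by exon length. In CPM per kilobase of exon, Mrps23, a protein found only in mitochondrial ribosomes, was the most abundant by its mean over the 12 libraries. It lay at 49.3 ± 1.7 in CON and 46.3 ± 2.9 in PEA (SD, n = 6), and its first place need not hold within PEA alone. Mrpl28, from bacterial L28, followed at 46.9 ± 4.1 in CON and did not differ from Mrps23 beyond this spread. Mrpl34, from bacterial L34, lay at 39.9 ± 3.3, and Mrps7 and Mrpl12 both lay at 35.5 in CON, with SDs of 1.7 and 2.5. The next highest small subunit member was Mrps34, a mitochondria-specific protein, at 25.4 ± 1.1, although exons of Nme3 on the same strand overlap 47.8% of its exon bases. At the low end, Mrpl35, Mrps10 and Mrps9 lay at 3.39 ± 0.31, 3.36 ± 0.17 and 3.35 ± 0.23 in CON and did not differ beyond their spread. Mrpl48 followed at 2.38 ± 0.27, Mrps35 at 1.78 ± 0.12 and Mrpl23 at 0.15 ± 0.04.

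This order depended on which exons were counted as the gene's length. Mrps35 has 14652 bases of exon over all its annotated transcripts and 4198 in its canonical transcript. With the canonical transcript Mrps21 became the most abundant member, at a mean of 122 over the libraries, and Mrps10 moved from rank 72 to rank 40. Mrpl48 and Mrpl23 stayed at the foot of the order at ranks 76 and 77. The largest and smallest log2 fold changes are named above except for those of Mrpl22, at 0.11 (95% interval -0.13 to 0.36), Mrpl34, at 0.04 (-0.10 to 0.18), Mrpl23, and Mrps6, at 0.02 (-0.09 to 0.14), none of which passed the test. With exon length and GC trends removed Mrpl34 had a value of 0.16 ± 0.06 (edgeR adjusted p = 0.0809).

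**Figure D4:**
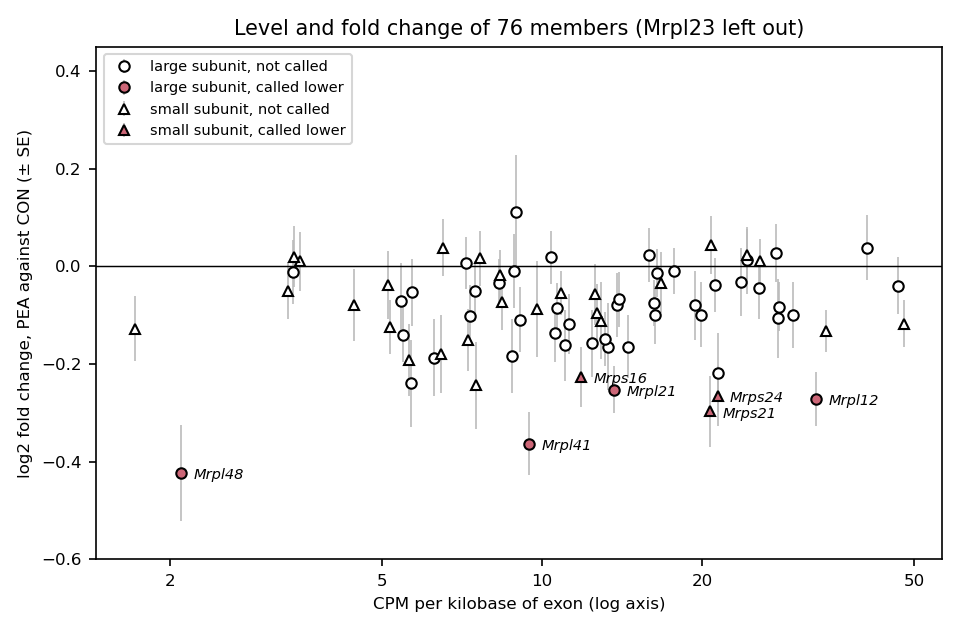
Each of 76 members is placed by its mean level over the 12 libraries (horizontal log axis, CPM per kilobase of exon) and its log2 fold change with SE (vertical axis), with circles for the large and triangles for the small subunit and filled symbols for the 7 members called lower. The called members span levels from 2.1 for Mrpl48 to 32.7 for Mrpl12.

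Mrpl23, a protein beside the tunnel exit, stood apart from all other members. It had 7.86 to 18.1 normalised counts in CON (median 14.9) and 11.1 to 28.97 in PEA (median 19.7), while the other members had means over the 12 libraries of at least 279.8. Its identical copy Mrpl23-ps1 had 870 ± 82.8 normalised counts in CON and 807 ± 59.8 in PEA (SD, n = 6). The member held 1.96% of the counts of the pair, so its level and its log2 fold change of 0.44 ± 0.30 (edgeR adjusted p = 0.371) are uncertain. With the pair summed the log2 fold change was -0.09 (edgeR adjusted p = 0.418).

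In all, 23 members had 40 annotated processed pseudogenes that matched at least 200 coding bases at 90% identity or more, and 16 of these copies, of 14 members, had values in the tables. Counts were split most evenly for Mrps5 and Gm13328, with 52.6% on the member, for Mrpl48, and for Mrpl27 and Mrpl27-ps, with 57.3% on the member. For Mrps36 and Mrps36-ps1 the share of the member was 74.5%. Gm6419, the copy of Mrpl42, was called lower (log2 fold change -0.56 ± 0.15; edgeR adjusted p = 0.0255), as was Gm13328 (-0.19 ± 0.06; edgeR adjusted p = 0.0435), while neither Mrpl42 (-0.16 ± 0.07; edgeR adjusted p = 0.144) nor Mrps5 (-0.08 ± 0.07; edgeR adjusted p = 0.528) passed the test. When 1 library was left out, the call of Gm6419 was lost in 4 of 12 fits (without CON replicate 5 or PEA replicate 2, 5 or 6) and that of Gm13328 in 9, all but those without CON replicate 2 or 4 or PEA replicate 3. With exon length and GC trends removed neither copy was called, at -0.37 ± 0.14 for Gm6419 (edgeR adjusted p = 0.0997) and -0.10 ± 0.06 for Gm13328 (edgeR adjusted p = 0.264), and Gm13328 was also lost with the replicate number as a block (edgeR adjusted p = 0.0718) and with no filter on low counts (edgeR adjusted p = 0.0572). Mrpl42 itself passed the test without CON replicate 4 (edgeR adjusted p = 0.0154). The called members Mrpl41, Mrpl21 and Mrps16 also have copies, which were not used here, and Mrpl12 held 99.1% of the counts it shares with Gm15770. With members and copies summed, 7 members were called lower.

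**Figure D5:**
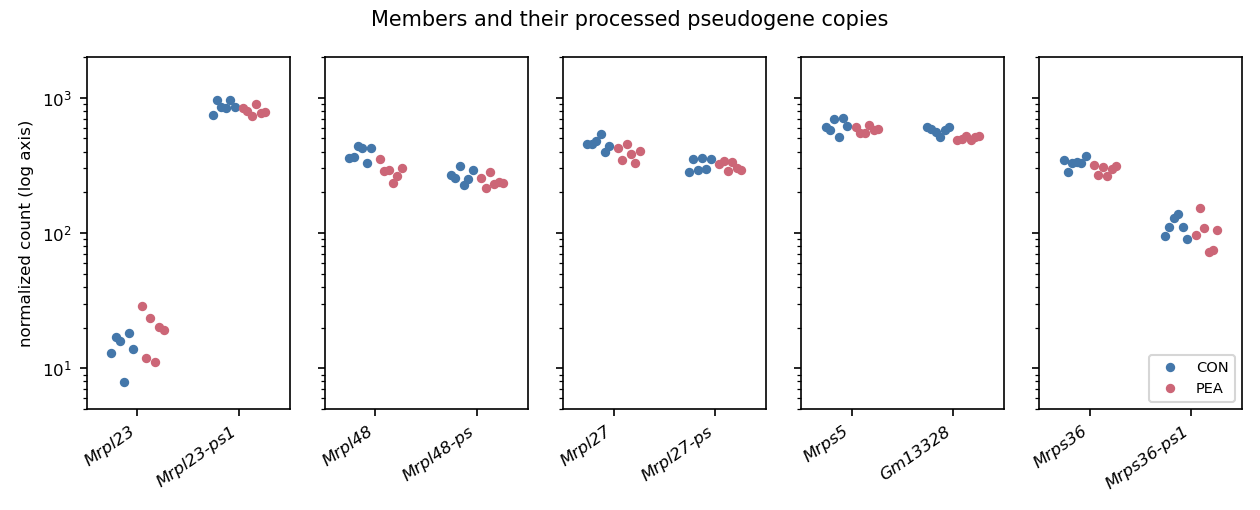
Normalised counts (log axis) of 5 members and their processed pseudogene copies are plotted for each library, CON in blue and PEA in red. Mrpl23 lies between 7.86 and 28.97 while its copy lies between 734 and 964, and the other pairs lie within a few fold of each other.

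The members were spread over 17 chromosomes, with 11 on chromosome 11. Their exons spanned a median of 4156 bases per gene, against 6100 over all genes tested, and their median GC content was 48.2%, against 48.8%. In the windows from 250 bases before to 50 bases after the start of the Ensembl canonical transcript, searched on both strands, the ETS motif CCGGAAG occurred in 29.9% of members and 15.4% of the 12143 tested protein-coding genes. The NRF1 consensus occurred in 15.6% and 9.28%, and the YY1 motif AANATGGC in 12.99% and 6.88%. The SP1 motif GGGCGG occurred in 42.9% and 58.3%, the E-box CACGTG in 6.49% and 10.1%, and TATAAA in 10.4% and 8.23%. NRF1 and the ETS factor GABP are known regulators of nuclear genes for mitochondrial proteins. A match describes letters in a window and says nothing about binding.

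Matches to the ETS and NRF1 motifs near the start of called members are shown as 30-base windows on the strand of the gene, GRCm39, with the motif, here always as the reverse complement of the consensus, in capitals. The ETS match of Mrpl48 starts 42 bases before the start of its canonical transcript, at position 100232329, which lies inside the span of the gene given above because longer annotated transcripts start further upstream, and the window is chr7:100232353-100232382. The NRF1 match of Mrps21 starts 86 bases before, at chr3:95778898-95778927, and that of Mrpl12 starts 57 bases before, at chr11:120375372-120375401.
Mrpl48: ggttttaaaaaCTTCCGGaaccaagatgct
Mrps21: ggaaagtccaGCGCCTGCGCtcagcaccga
Mrpl12: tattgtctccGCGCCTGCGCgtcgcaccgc
Mrps21 also had an ETS match downstream of its start. In the windows of Mrpl41, Mrps24, Mrpl21 and Mrps16 these letters were not found.

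A neighbour transcribed in the opposite direction started within 1000 bases upstream of 14 of the 77 members (18.2%), against 7.72% of tested protein-coding genes. Mrpl46 and Mrps11 are such neighbours of each other. Of the 14 neighbours, these members among them, 3 were called higher and 0 lower by edgeR. Over all genes tested 6.31% were called higher and 4.74% lower. Mrpl41 starts 101 bases from Pnpla7, a lysophospholipase, which had 269.7 ± 47.8 normalised counts in CON and 382 ± 59.6 in PEA (SD, n = 6), a log2 fold change of 0.51 ± 0.12 (edgeR adjusted p = 0.0156), while Mrpl41 itself was lower. Ncapd2, a condensin subunit that starts 44 bases from Mrpl51, had a log2 fold change of 0.62 ± 0.11 (edgeR adjusted p = 0.00348), and Mrpl51 of -0.10 ± 0.06 (edgeR adjusted p = 0.29). Mitd1, 61 bases from Mrpl30, had a log2 fold change of 0.39 ± 0.10 (edgeR adjusted p = 0.0195, and 0.0529 without PEA replicate 6), and Mrpl30 of -0.09 ± 0.05 (edgeR adjusted p = 0.306). Psma2, a proteasome subunit beside Mrpl32, had a log2 fold change of -0.16 ± 0.05 (edgeR adjusted p = 0.0551, and 0.0327 without CON replicate 4 and 0.0487 without PEA replicate 3). DESeq2 and limma-voom called Psma2 lower. So did edgeR with the replicate number as a block (adjusted p = 0.0406) and with exon length and GC trends removed (adjusted p = 0.0249).

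The third comparison placed the members beside other genes of mitochondrial translation. The 5 ribosomal proteins with other symbols did not pass the test with edgeR, DESeq2 or limma-voom, and none had an unadjusted p below 0.05. Their log2 fold changes were -0.07 for Chchd1, -0.04 for Ptcd3, -0.03 for Dap3 and 0.01 for Aurkaip1, all small subunit proteins, and -0.02 for Gadd45gip1 of the large subunit. Dap3, a GTP-binding protein of the small subunit, had 1669 ± 76.3 normalised counts in CON and 1634 ± 50.8 in PEA (SD, n = 6).

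Of 28 factors for assembly of the ribosome and modification of its RNA, 0 were called by edgeR, DESeq2 or limma-voom. Their median log2 fold change was -0.02. At an unadjusted p below 0.05, 3 were higher and 0 lower, where 14.3% of all genes tested were higher and 13.1% lower. The smallest p belonged to Ybey, an endoribonuclease (0.35 ± 0.14; edgeR adjusted p = 0.106, and 0.0185 without CON replicate 2), and to Trmt2b, an RNA methyltransferase (0.18 ± 0.08; edgeR adjusted p = 0.165). Of 20 translation factors edgeR called 1 lower (5%, against 4.74% of all genes tested) and 0 higher (6.31% of all genes tested), with a median of -0.02. This was Mtres1, a factor that rescues stalled mitochondrial ribosomes, at 628 ± 57.6 normalised counts in CON and 528 ± 44.5 in PEA (SD, n = 6; log2 fold change -0.25 ± 0.07; edgeR adjusted p = 0.0399). Its call was lost when any of CON replicates 3 to 6 or PEA replicate 2, 3, 5 or 6 was left out, with an adjusted p of 0.0943 at most. DESeq2 called Letm1 lower as well, where it called 7.03% of all genes lower.

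Of 24 genes for transcription of mitochondrial DNA and stability of its RNA, 0 were called by edgeR, with a median log2 fold change of -0.06. At an unadjusted p below 0.05, 3 were lower and 2 higher, where 13.1% of all genes tested were lower and 14.3% higher. Pnpt1, a mitochondrial RNA-degrading enzyme, had a log2 fold change of 0.24 ± 0.08 (edgeR adjusted p = 0.0629, and 0.00795 without CON replicate 2 and 0.0343 without PEA replicate 3). DESeq2 and limma-voom called Pnpt1 higher, as did edgeR with the replicate number as a block (adjusted p = 0.0256). With exon length and GC trends removed it was not called (edgeR adjusted p = 0.125). Mterf1a, a transcription termination factor, had a value of 0.36 ± 0.13 (edgeR adjusted p = 0.0783, and 0.0489 without CON replicate 4). Of 10 tested regulators of mitochondrial biogenesis 0 were called by edgeR. The coactivator Ppargc1b had a log2 fold change of -0.43 ± 0.14 (edgeR adjusted p = 0.0616, and 0.0258 without CON replicate 4) and was called lower by DESeq2 and limma-voom, and Pprc1 had a value of 0.12 ± 0.07 (edgeR adjusted p = 0.303).

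Transcripts of the 13 proteins made by these ribosomes, all encoded by mitochondrial DNA, were not called in either direction by edgeR, DESeq2 or limma-voom. The proteins themselves were not measured. Their median log2 fold change was -0.14, with 12 of 13 below 0, against 48.7% of all genes tested. At an unadjusted p below 0.05, 4 were lower and 0 higher, where 13.1% of all genes tested were lower and 14.3% higher. The smallest p belonged to mt-Atp8, a subunit of ATP synthase (-0.49 ± 0.18; edgeR adjusted p = 0.0908), and mt-Nd1, a subunit of complex I (-0.28 ± 0.11; edgeR adjusted p = 0.101). The value of mt-Atp8 rested on CON replicate 4, at 2695 normalised counts where the next CON library was at 1342, and without it the log2 fold change was -0.23 ± 0.09 (edgeR adjusted p = 0.126). With exon length and GC trends removed it was -0.15 ± 0.13. Without CON replicate 2 mt-Nd1 was called lower (edgeR adjusted p = 0.0419). The libraries were made from poly-A RNA.

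For scale, 2 families of nuclear genes were counted in the same fit by their symbols, chosen after values had been seen. Of 72 cytosolic ribosomal proteins edgeR called 29 lower (40.3%) and 0 higher, with a median log2 fold change of -0.19, and DESeq2 called 35 lower and 0 higher. Of 81 nuclear genes with symbols of the respiratory chain and ATP synthase edgeR called 30 lower (37.0%) and 1 higher, with a median of -0.16, and DESeq2 called 44 lower and 1 higher. The difference of these shares from the 9.09% of mitochondrial ribosomal proteins was not tested.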

How the data were processed

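RNA-seq libraries were made from poly-A RNA of 12 C2C12 myotube cultures, 6 CON and 6 PEA. PEA replicate 2 has 2 runs in the labels that name 1 set of values and was counted as 1 library. The authors trimmed the reads, aligned them with STAR 4.4.1d to mm39 (GRCm39) and quantified them in Partek Flow with an expectation-maximisation model against an Ensembl annotation that the study gives as version 100. The first deposited table holds estimated counts per gene, without normalisation. The other table the authors deposited is a signal, in which each library's estimated counts were divided by its DESeq2 median-ratio factor, called normalised counts here. Non-whole numbers (tolerance 0.01) made up 30.8% of the nonzero estimated counts, and such values can arise when reads are shared between genes.

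After rounding, estimated counts were tested with the quasi-likelihood test of edgeR 4.0.16 (R 4.3.3), using TMM factors and its default expression filter. This left 13142 genes, whose p-values were adjusted by Benjamini-Hochberg, and calls were made below 0.05. DESeq2 1.42.0 and limma 3.58.1 served as alternatives, and BLAST 2.17.0 found pseudogene copies. Positions and symbols came from GENCODE for GRCm39. CPM are estimated counts scaled to a common library total. Before taking log2, a prior count of 2 was added for CPM and a pseudocount of 1 for normalised counts. Named genes were every called member, the 3 highest and 3 lowest levels and the 3 largest rises and falls in each subunit, a fixed set of members with known place or function, and the leading genes of each list and of the neighbours. The members and lists were chosen with earlier results of these data known, so p-values were adjusted over all genes only. Errors stand for counting and for differences among the libraries. The 12354845 to 50397444 counts per library gave a biological coefficient of variation of 0.106.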

Additional observations from a re-analysis of the deposited data

Results flagged for a closer look

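In 6 of 122 groups of 6 libraries examined, 1 library stood far from the rest, and chance alone marks about 1 in 20 groups. Mrpl41 had 866 normalised counts in CON replicate 3, with the next CON library at 736. Mrpl12 had 2146 normalised counts in PEA replicate 1, with the next PEA library at 1862. Mrpl10 had 1876 normalised counts in CON replicate 2, with the next CON library at 1704. Among genes that are no member, mt-Atp8 had 2695 normalised counts in CON replicate 4 (next 1342), Ncapd2 had 798 in CON replicate 2 (next 586) and Mitd1 had 360.3 in PEA replicate 1 (next 422).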

How the results depend on the processing

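The count of members called lower was 7 to 8 under DESeq2, limma-voom, median-ratio factors, no filter, at least 10 counts in every library, the deposited normalised counts and removal of length and GC trends, with 0 called higher. It was 6 to 8 when 1 library was left out (4 to 5 in the large and 2 to 3 in the small subunit), while the share of all genes called lower moved from 2.16% (without PEA replicate 6, 6 members) to 7.35% (without CON replicate 2, 7 members), with medians of -0.09 to -0.06 for all members, -0.10 to -0.07 for the large and -0.12 to -0.05 for the small subunit. At an edgeR adjusted p below 0.01, 3 members were called lower, with 0 in the small subunit. DESeq2 called 6 (2 in the small subunit), the replicate block 3 (1, Mrps21), and fits with 1 library left out 0 to 5. The share of all genes called at 0.01 is not given here, so these counts have no background and do not compare the subunits. The level per kilobase moved with the length used, from a median of 13.2 to 19.3 (longest coding transcript) and 27.5 (canonical transcript) in the large subunit and from 8.42 to 15.6 and 21.8 in the small subunit. With the replicate number as a block, 7 members were called lower with a median of -0.08. The numbers did not pair the libraries, with correlations of -0.08 to 0.06 between libraries of the same number and none correlating best with its own. The canonical transcript length, the sums with pseudogene copies and the count without Mrpl23 (7 called lower) were chosen after seeing the data. Mrps7 was called lower with DESeq2 (adjusted p = 0.0333), median-ratio factors in edgeR (adjusted p = 0.0498) and without CON replicate 4 (adjusted p = 0.038). Mrpl11 (adjusted p = 0.048) and Mrps28 (adjusted p = 0.04) were called without PEA replicate 3, Mrpl42 (adjusted p = 0.0154) without CON replicate 4 and Mrpl54 (adjusted p = 0.0493) without PEA replicate 1, and the cause was not tested.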
